A study of Sus scrofa with 12 samples.

Results

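The genes described here are 9 regulators, channel subunits and anchoring proteins of vascular smooth muscle: MYOCD, KCNMB1, PLN, PPP1R14A, HSPB7, ITGA8, CSRP1, FLNA and ACTN1. They were chosen by symbol, as every probe set of the porcine Affymetrix array whose only gene symbol in the platform's annotation is one of these names. This gave 15 of 24123 probe sets, and 13 of the 15 passed a filter that removed the 30% of probe sets with the lowest mean. All 9 genes kept at least 1 tested probe set among the 5793 genes tested. The arrays came from coronary artery tissue of Yorkshire farm pigs, collected 28 days after angioplasty and stenting and dissected by hand from the stent. The groups were sirolimus-eluting stents (SES), zotarolimus-eluting stents (ZES) and bare metal stents (BMS), with 4 segments from 2 pigs each and thus 12 arrays of 6 pigs in all. All segments were stented, so there is no artery without a stent among them. Segments are numbered 1 to 4 within each stent type: numbers 1 and 2 are a pig's pair, and numbers 3 and 4 are the pair of the second animal. A pair joins a right coronary (RCA) with a left anterior descending (LAD) segment, except that SES 1 lay in the left circumflex artery. The sources used here name no genotype, age or sex of the pigs, and no dose or coating of the stents.

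Smooth muscle cells of the artery wall contract when calcium activates the kinase that phosphorylates myosin, and relax when myosin phosphatase removes the phosphate. Myocardin, the product of MYOCD, binds serum response factor and switches on the genes of this contractile state. After vessel injury smooth muscle cells can lower these genes and take on a proliferative, matrix-making state. Sirolimus, an inhibitor of the kinase mTOR, slows their growth. In zotarolimus, a related molecule, a tetrazole replaces one hydroxyl of sirolimus. KCNMB1 encodes the beta subunit that raises the calcium sensitivity of the large-conductance potassium channel, a brake on contraction. PLN is phospholamban, an inhibitor of the calcium pump of the sarcoplasmic reticulum. PPP1R14A, also called CPI-17, inhibits myosin phosphatase. HSPB7 is a small heat shock protein of heart and blood vessel. ITGA8 is an integrin subunit that pairs with the beta subunit ITGB1, CSRP1 is a LIM domain protein of actin structures, and FLNA and ACTN1 encode filamin A and alpha-actinin, which crosslink actin filaments and tie them to adhesion sites.

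By the brightest probe set of each gene, the mean signal was lowest around SES in all 9 genes. In 8 it was highest around BMS, with ZES between, and FLNA had its highest mean around ZES. Some further probe sets, of KCNMB1, ITGA8 and ACTN1, were also highest around ZES. The second probe sets of PLN and ITGA8 were highest around BMS. On the brightest probe set of each gene, SES 1 to 3 lay below every BMS array. SES 4 did so in 3 genes, against 4.73% of all genes in which the whole SES group lay below BMS. SES 1 to 3 were set apart after their values were seen, and the share of all genes with that pattern was not counted. None of the 9 passed an adjusted p under 0.05 in limma between any 2 stent types, where 0.898% of 5793 genes passed between SES and BMS, 0% between ZES and BMS and 0.121% between ZES and SES. In whole pieces of artery, fewer cells of a type and less RNA per cell cannot be told apart.

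**Figure D1:**
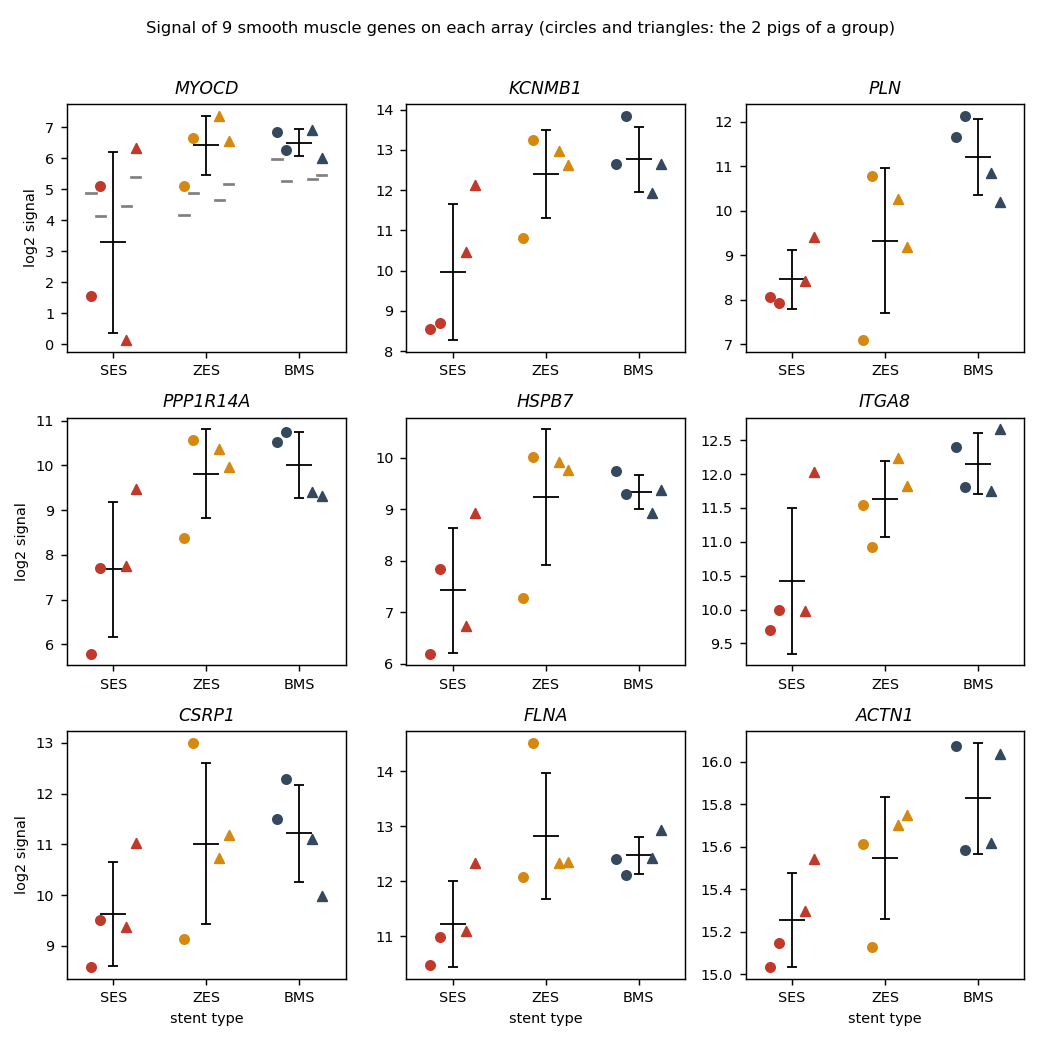
Log2 signal of each of the 9 genes (1 panel a gene, the probe set with the highest mean) on 12 arrays, by stent type. Circles and triangles are segments of the 2 pigs of a group, black bars the mean ± SD of 4 arrays, and grey dashes in the MYOCD panel the background level of each array. SES 1 to 3 lie below all BMS arrays in each gene, and SES 4 is the highest SES array in each.

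The transcriptional regulator had the widest spread. MYOCD read 1.57, 5.12, 0.13 and 6.32 on SES arrays 1 to 4, 5.10, 6.66, 7.38 and 6.55 on ZES arrays and 6.85, 6.26, 6.90 and 6.02 on BMS arrays (log2 signal). It was above the background level of the array on 2 of 4 SES arrays and on all ZES and BMS arrays, with background taken as the 95th percentile of the 59 negative controls of each array. On SES 1 and SES 3 it lay below a background of 4.88 and 4.47, so the low values there mark a bound and not a level. The difference between SES and BMS was -3.22 ± 1.09 (log2, estimate ± SE, limma, adjusted p = 0.171). With a pseudocount of 32 on the linear scale it was -1.19, so its size rests on the signals under background. SES 4, at 6.32, was within the BMS range.

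Both genes of membrane ion transport were bright on all arrays. KCNMB1 read 8.56, 8.69, 10.46 and 12.14 on SES arrays, 10.81, 13.24, 12.97 and 12.61 on ZES arrays and 12.64, 13.85, 11.92 and 12.64 on BMS arrays. SES 1 and SES 2, of one pig, were the lowest, and SES 4 lay above BMS 3. Its difference was -2.80 ± 0.67 for SES against BMS (limma, adjusted p = 0.0633), a mean 6.97-fold lower around SES on the linear scale (geometric means). PLN read 8.07, 7.93, 8.42 and 9.42 on SES arrays, 7.09, 10.78, 10.27 and 9.18 on ZES arrays and 11.65, 12.14, 10.85 and 10.19 on BMS arrays. All 4 SES arrays were below all 4 BMS arrays, and ZES 1 was the lowest of the 12. The difference of PLN was -2.75 ± 0.63 for SES against BMS (limma, adjusted p = 0.0569), and it ranked 129 of 16799 probe sets by p.

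Phosphatase inhibition and the small heat shock protein showed the same order of groups. PPP1R14A averaged 7.68 ± 1.51 around SES, 9.82 ± 0.99 around ZES and 10.00 ± 0.74 around BMS (log2 signal, mean ± SD, n = 4). It read 5.79, 7.70, 7.75 and 9.48 on SES arrays, 8.38, 10.56, 10.37 and 9.96 on ZES arrays and 10.52, 10.75, 9.41 and 9.32 on BMS arrays. SES 4 again overlapped with BMS, just above BMS 3 and BMS 4, and the difference between SES and BMS was -2.32 ± 0.64 (limma, adjusted p = 0.1). HSPB7 read 6.20, 7.84, 6.74 and 8.92 on SES arrays, 7.27, 10.02, 9.91 and 9.75 on ZES arrays and 9.73, 9.30, 8.93 and 9.37 on BMS arrays. The SES and BMS arrays did not overlap, although SES 4 and BMS 3 were nearly equal. The difference of HSPB7 was -1.91 ± 0.61 (limma, adjusted p = 0.155).

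Among the genes of adhesion and anchoring, the integrin subunit had the largest fitted difference between SES and BMS. ITGA8 read 9.69, 9.99, 9.98 and 12.02 on SES arrays, 11.54, 10.92, 12.24 and 11.82 on ZES arrays and 12.39, 11.81, 11.75 and 12.66 on BMS arrays. Its values on SES 1 to 3 were close together and below all ZES and BMS arrays, and SES 4 stood apart from them. The difference was -1.73 ± 0.44 for SES against BMS (limma, adjusted p = 0.0776). CSRP1 read 8.58, 9.52, 9.37 and 11.04 on SES arrays, 9.13, 13.01, 10.73 and 11.19 on ZES arrays and 11.51, 12.28, 11.11 and 9.98 on BMS arrays, with a difference of -1.59 ± 0.66 for SES against BMS (limma, adjusted p = 0.271). The ZES arrays were spread widely in CSRP1, from ZES 1, within the SES range, to ZES 2, the highest of all 12.

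FLNA read 10.48, 10.98, 11.09 and 12.33 on SES arrays, 12.07, 14.52, 12.33 and 12.36 on ZES arrays and 12.41, 12.12, 12.42 and 12.93 on BMS arrays. The difference was -1.25 ± 0.47 for SES against BMS (limma, adjusted p = 0.216), and ZES 2 stood above the rest. ACTN1 had the smallest difference between SES and BMS of the 9 genes, -0.57 ± 0.24 (limma, adjusted p = 0.275), although its groups did not overlap. It read 15.03, 15.15, 15.30 and 15.54 on SES arrays, 15.61, 15.13, 15.70 and 15.75 on ZES arrays and 16.07, 15.58, 15.62 and 16.04 on BMS arrays. Its probe set was among the brightest of the array, above 99.6% of probe sets by mean, and whether the scanner was near its ceiling there was not tested, since only processed signals were used.

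Between SES and BMS, 0 of the 9 genes passed in limma after adjustment over all probe sets. At an unadjusted p under 0.05 all 9 were lower around SES, against 7.54% of all genes that were lower and 8.18% that were higher at that level. The 3 genes without overlap between SES and BMS arrays, on the brightest probe set of each, were PLN, HSPB7 and ACTN1. On the second probe set of PLN only 2 of 4 SES arrays lay below all BMS arrays, and on that of ACTN1 only 1. The median difference of the 9 genes was -1.91 and that of all genes tested was -0.0064. Of the 9, 7 had a difference below the 5th percentile of all genes, which was -1.46; CSRP1 lay just inside it and FLNA and ACTN1 above it. The 9 genes were listed together with earlier results of these arrays known, so this share is a description and no test of the list. On means per pig, both SES pigs were below both BMS pigs in all 9 genes. The share of all genes with that order was not counted, so this is a description. With 2 pigs against 2 an exact permutation test cannot go below p = 0.333. Without SES 4, 6 of the 9 genes passed, namely MYOCD, KCNMB1, PLN, PPP1R14A, HSPB7 and ITGA8, with a median of -2.40, and 415 of all 16799 probe sets passed in that fit, against 114 with all arrays. Without ZES 1, KCNMB1 and PLN passed, as did 146 of all probe sets. PLN alone passed without ZES 4 and without BMS 4, as did 184 and 175 of all probe sets.

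**Figure D2:**
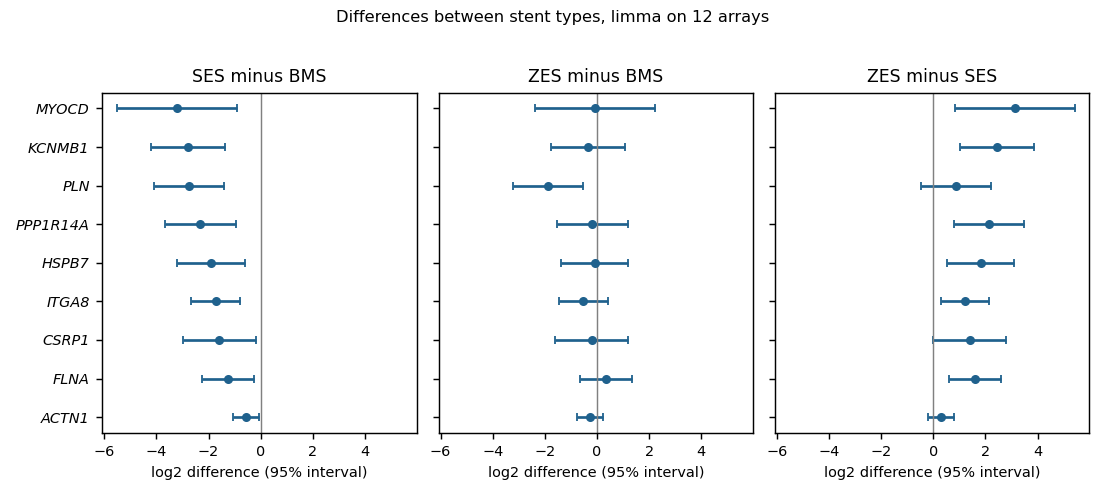
Fitted log2 differences (x axis, points) with 95% intervals (bars) for the 9 genes in the 3 comparisons of stent types. All 9 points are below 0 for SES minus BMS and above 0 for ZES minus SES, and 8 of the 9 intervals include 0 for ZES minus BMS.

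The technical controls of the arrays also differed between SES and BMS. The hybridisation spike-in controls, averaged over 27 probe sets, read 14.62 to 15.60 on SES arrays and 15.74 to 16.52 on BMS arrays (log2). For GAPDH, the 3' minus the 5' control signal was 2.33 to 3.02 on SES arrays and 3.64 to 4.63 on BMS arrays. On ZES arrays the spike-in controls read 14.60 to 15.91 and the GAPDH difference was 3.44 to 3.91. Adjusted for the spike-in level, the median of the 9 genes was -1.13 between SES and BMS, and adjusted for the GAPDH difference it was -3.35. In neither fit did any probe set of the array pass. The SES and BMS ranges of both controls do not overlap, so control level and stent type cannot be told apart. A 28S ribosomal RNA control read 12.74 on ZES 2 and 12.03 on BMS 1 and at most 9.71 elsewhere, and without these 2 arrays the median was -1.78.

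The comparison of ZES with BMS asks what the zotarolimus-eluting stent adds to stenting itself. On the brightest probe sets the ZES mean was below the BMS mean in 8 of the 9 genes. Of these 8 differences, 7 were between -0.52 and -0.089. Further tested probe sets of ITGA8 went both ways, with -0.45 ± 0.65 on the second and 0.20 ± 0.77 on the third. The second probe set of ACTN1 gave 0.20 ± 0.40. PLN differed by -1.88 ± 0.63 (limma, adjusted p = 0.424), and the direction was the same on its second probe set, with -0.93 ± 0.77 (adjusted p = 0.753). PLN was the only gene of the 9 at an unadjusted p under 0.05, and 2.92% of all genes were lower at that level. An unadjusted p under 0.05 in either direction was seen in 449 of the 5793 genes, or 7.75%. FLNA differed by 0.35 ± 0.47 (adjusted p = 0.867), with its 95% interval from -0.64 to 1.33.

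The median of the 9 genes was -0.20 for ZES against BMS, against 0.012 over all genes. Adjusted for the spike-in level it was 0.44, and it was 0.30 without ZES 1, the array with the lowest PLN, KCNMB1, PPP1R14A, HSPB7, CSRP1, FLNA and MYOCD of its group. In 7 of the 9 genes exactly 1 ZES array lay below all BMS arrays, and in PLN and ITGA8 it was 2. The intervals were wide: for MYOCD from -2.39 to 2.21, for KCNMB1 from -1.78 to 1.07 and for PPP1R14A from -1.53 to 1.17. These intervals do not show that ZES and BMS segments were alike.

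The comparison of ZES with SES sets the 2 types of drug-eluting stent side by side at the same time after stenting. Neither dose nor coating is known and no pig had both types, so drug, dose, coating and pig cannot be told apart. All 9 genes had a higher mean around ZES, with a median difference of 1.60 against 0.0099 over all genes. MYOCD differed by 3.14 ± 1.09 (limma, adjusted p = 0.312), and by 1.17 with a pseudocount of 32. Its signals on SES 1 and SES 3 were under background. The differences were 2.45 ± 0.67 for KCNMB1 (limma, adjusted p = 0.188), 2.14 ± 0.64 for PPP1R14A (adjusted p = 0.224) and 1.81 ± 0.61 for HSPB7 (adjusted p = 0.295). FLNA differed by 1.60 ± 0.47 (limma, adjusted p = 0.217), more than it did between SES and BMS, and ITGA8 by 1.21 ± 0.44 (adjusted p = 0.344). CSRP1 differed by 1.39 ± 0.66, PLN by 0.87 ± 0.63 and ACTN1 by 0.29 ± 0.24.

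At an unadjusted p under 0.05, 6 of 9 were higher around ZES, against 6.42% of all genes higher at that level. In 0 of the 9 did the ZES arrays all lie above the SES arrays, against 3.44% of all genes, and SES 4 was above the lowest ZES array in each. Leaving out SES 4 gave 3 genes that passed, KCNMB1, PPP1R14A and ITGA8, and 158 of all probe sets, against 12 with all arrays. This comparison and that of SES with BMS share the SES arrays, so they are not separate evidence. An F test over the 3 stent types called none of the 9 genes (limma, smallest adjusted p = 0.106, for KCNMB1), where 0.535% of all genes passed. Of the 9, 7 had an unadjusted p under 0.05 in it, against 14.4% of all genes.

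**Figure D3:**
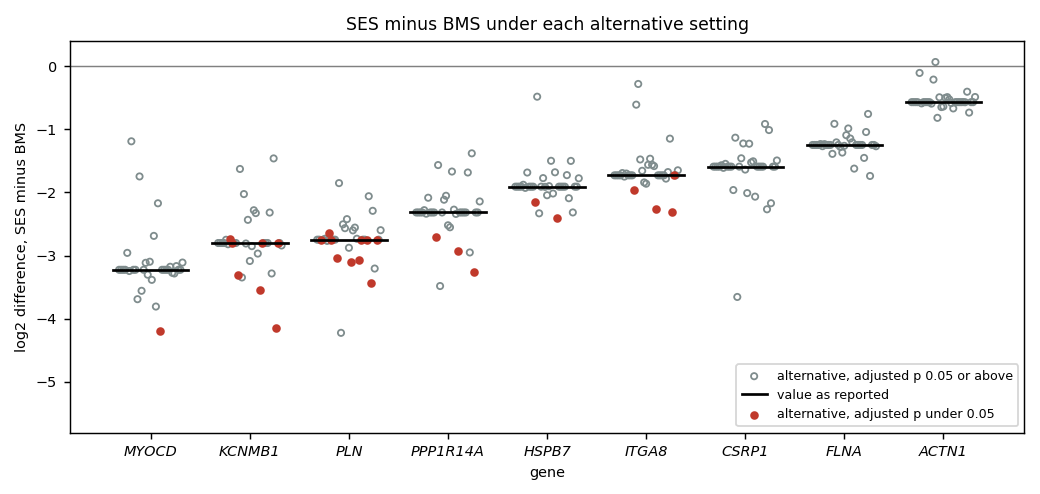
Log2 difference of SES minus BMS (y axis) for each of the 9 genes under the reported setting (black line) and each alternative setting (circles, filled where the adjusted p was under 0.05). ACTN1 is at 0.063 with the GAPDH difference as a covariate, and all other circles are below 0.

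The segments of one pig could differ as much as the stent groups did. SES 4, the LAD segment, was above SES 3, the RCA segment of the same pig, in all 9 genes, with a median of 1.67 and up to 2.18 in HSPB7 among the genes other than MYOCD, which was under background on SES 3. ZES 2 was above ZES 1, again LAD and RCA of one pig, in 7 of 9 genes with a median of 2.43, and ITGA8 and ACTN1 went the other way. In the other SES pig the circumflex segment was below the RCA segment in 8 of 9 genes, with a median of -0.50. The LAD minus RCA medians were -0.36 in the other ZES pig and -0.29 and 0.42 in the BMS pigs. The largest medians were thus in 1 SES pig and 1 ZES pig. Technical controls differed between these segments too: the spike-in controls read 15.60 on SES 4, 14.90 on SES 3, 15.10 on ZES 2 and 14.60 on ZES 1. Signals listed at 0 numbered 289, 770, 499 and 1153 on these arrays. The spike-in controls also differed between SES 1 (15.24) and SES 2 (14.62), and between BMS 1 (16.52) and BMS 2 (15.74). The part of artery and of control level in the gaps within pigs was not tested.

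**Figure D4:**
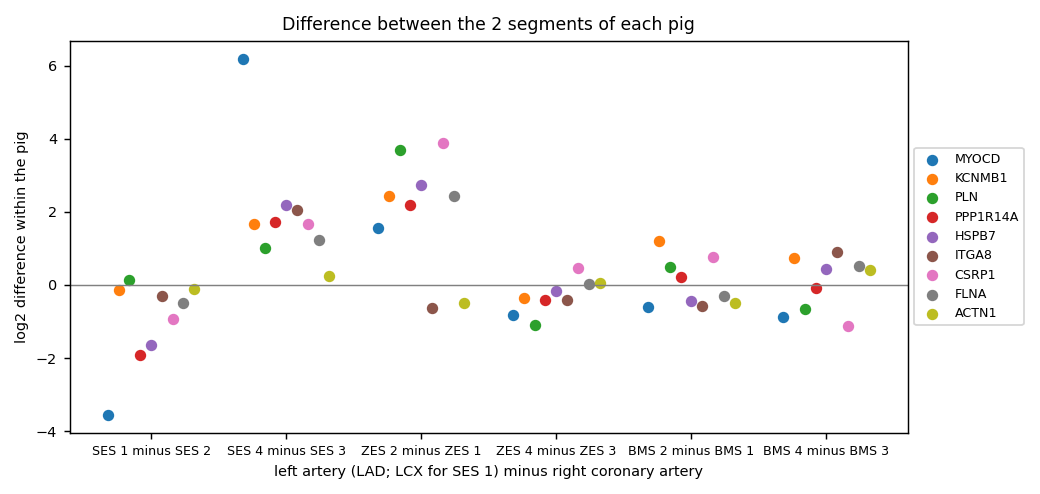
Log2 difference between the left and right artery segment (y axis) within each of 6 pigs (x axis), with 1 point for each of the 9 genes. In the pigs of SES 4 and ZES 2 the medians are 1.67 and 2.43, and in the other 4 pigs they lie between -0.50 and 0.42. The MYOCD points of both SES pigs rest on a signal under background.

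Over the 5 pigs with an LAD and an RCA segment, 8 of the 9 genes had a higher mean in LAD, with a median of 0.79 against 0.0070 over all genes. KCNMB1 averaged 12.90 in LAD and 11.76 in RCA segments, a difference of 1.14 ± 0.35 (limma with the pig as a fixed block, adjusted p = 0.721), and was higher in LAD in 4 of 5 pigs. FLNA differed by 0.79 ± 0.36 (limma, adjusted p = 0.723), CSRP1 by 1.13 ± 0.53 (adjusted p = 0.73) and ACTN1 by -0.053 ± 0.24 (adjusted p = 0.973). No gene passed in limma (0% of 5793), and 2 of the 9, KCNMB1 and FLNA, had an unadjusted p under 0.05, against 6.49% of all genes. With the artery as a fixed term in the comparison of stents, none of the 9 genes passed either.

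Further probe sets of the same genes were measured for 4 of the 9. The second probe set of PLN gave a difference of -2.26 ± 0.77 for SES against BMS (limma, adjusted p = 0.171) and followed the first over the 12 arrays with r = 0.934. The second probe set of ITGA8 gave -1.88 ± 0.65 (adjusted p = 0.18), and the third gave -0.83 ± 0.77 (adjusted p = 0.662), with r = 0.861 and r = 0.587 to the first. ACTN1 had a second tested probe set, of a type that matches several transcripts of a gene, with a difference of -0.54 ± 0.40 (adjusted p = 0.568). It was close to the first in size but correlated with it at only 0.237 over the 12 arrays, so the ACTN1 values depend on the probe set. The second probe set of KCNMB1 and the third of ACTN1 were removed as dim, being above background on 5 and 3 of 12 arrays. These correlations are descriptions over arrays that share pigs and stent types.

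Over the 12 arrays the 36 pairs of the 9 genes correlated with a median r of 0.771, from 0.219 for CSRP1 and ACTN1 to 0.946 for KCNMB1 and PPP1R14A. After the group means were taken out, the median was 0.566 and the range was -0.263 to 0.882, so that part of the likeness lay between segments of one stent type. PPP1R14A followed the mean of the other 8 genes most closely (r = 0.963) and ACTN1 least (r = 0.586). ACTN1 was closest to ITGA8, with r = 0.903. The arrays come from 6 pigs and share the scaling of each array, and the values are given as descriptions.

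Among 5784 other genes, the 6 whose pattern was most like the mean of the 9 genes, by Pearson r over 12 arrays, were EXT1 (0.968), CALD1 (0.964), CNN1 (0.962), PACSIN3 (0.962), SPARCL1 (0.959) and FXYD7 (0.959). Genes entered this mean centred but not scaled, so genes with a wide range, such as MYOCD, weighed more. The mean thus holds MYOCD signals under background. CALD1 and CNN1 encode caldesmon and calponin, thin-filament proteins of smooth muscle, and EXT1 an enzyme of heparan sulfate synthesis. CNN1 differed by -3.15 ± 0.81 between SES and BMS (limma, adjusted p = 0.0804) and EXT1 by -1.70 ± 0.40 (adjusted p = 0.0573). For MYOCD alone the most alike were ATG9B (0.939), EYA3 (0.886), PACSIN3 (0.884) and LRRC51 (0.875). MYOCD was under background on SES 1 and SES 3. ATG9B, EYA3 and LRRC51 fell to 3.10, 2.005 and 1.89 on their lowest array, while background was 4.15 to 5.96 over the arrays. Their r with MYOCD thus rests in part on signals under background.

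Lists of related genes were drawn up around the 9, which are left out of them. Their counts stand beside the shares of all genes at an unadjusted p under 0.05. For SES against BMS 7.54% were lower and 8.18% higher. For ZES against BMS 2.92% were lower, and for ZES against SES 6.42% were higher and 4.95% lower. Of 15 contractile and thin-filament genes, 0 passed in limma for SES against BMS, 11 were lower at an unadjusted p under 0.05 and all 15 differences were below 0, with a median of -1.69. SMTN, smoothelin, differed by -2.09 ± 0.54 (adjusted p = 0.0804) and TPM2, a tropomyosin, by -1.69 ± 0.44 (adjusted p = 0.0818). For ZES against BMS the median of this list was -0.30 with 1 gene lower at that level, and for ZES against SES it was 1.57 with 8 higher.

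The 14 genes listed as cofactors of serum response factor or as regulators of smooth muscle genes were mixed. None passed, 2 were higher and 3 lower around SES than around BMS at an unadjusted p under 0.05, and the median was -0.50. CSRP2, a close relative of CSRP1 known from smooth muscle, read 13.00, 12.42, 12.64 and 12.50 on SES arrays, 12.49, 11.76, 12.40 and 12.52 on ZES arrays and 10.94, 11.98, 10.92 and 11.68 on BMS arrays. Every SES array was above every BMS array, with a difference of 1.26 ± 0.29 (limma, adjusted p = 0.0575). KLF4, a transcription factor known in mice to repress smooth muscle genes, read 10.63, 10.78, 10.85 and 9.26 on SES arrays, 8.97, 8.21, 8.80 and 7.49 on ZES arrays and 7.90, 8.40, 8.56 and 9.43 on BMS arrays. SES 4 was the lowest SES array and lay below BMS 4, and the difference was 1.81 ± 0.45 (limma, adjusted p = 0.0761). GATA6 differed by -1.14 ± 0.41 (adjusted p = 0.193).

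Some known partners of the 9 proteins were singled out after their values had been seen, and not all partners are among them. KCNMA1, the pore subunit that KCNMB1 modifies, differed by -0.24 ± 0.81 and was above background on 7 of 12 arrays. ATP2A2, the calcium pump that PLN inhibits, differed by 0.46 ± 0.50. PPP1R12A and PPP1CB, subunits of the myosin phosphatase that PPP1R14A inhibits, differed by 0.27 ± 0.30 and -0.0089 ± 0.30, and ITGB1, the partner of ITGA8, by -0.0018 ± 0.36. These 5 had adjusted p between 0.718 and 0.999 in limma. VCL, vinculin, which binds alpha-actinin, differed by -0.85 ± 0.37 (limma, adjusted p = 0.296). Whether a partner differed less than the gene it was paired with was not tested.

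Of 11 genes for potassium and calcium channels and calcium handling, 0 passed and 0 had an unadjusted p under 0.05, with a median of -0.24. Those with the smallest p were ATP2B1 (-1.76 ± 0.93), CAMK2D (-0.54 ± 0.35) and ORAI1 (0.67 ± 0.49).

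Of 22 genes for integrins, focal adhesion and actin anchoring, 0 passed, with a median of -0.47. At an unadjusted p under 0.05, 1 was higher and 9 were lower, against 8.18% and 7.54% of all genes. SORBS3, vinexin, differed by -1.16 ± 0.33 (limma, adjusted p = 0.102), DSTN, destrin, by -1.73 ± 0.52 (adjusted p = 0.126) and CAV1, caveolin, by -1.25 ± 0.41 (adjusted p = 0.163). For ZES against SES 8 of the 22 were higher and 2 lower at that level. Of 7 small heat shock proteins and partners, 0 passed and 2 were lower, HSPB2 at -1.72 ± 0.48 and HSPB6 at -1.09 ± 0.49, followed by CRYAB at -0.90 ± 0.48, with a median of -0.75. Of 11 genes known from synthetic smooth muscle cells, 0 passed, 2 were higher and 4 lower, with a median of 0.16. Besides KLF4 they include fibronectin, FN1, at 1.53 ± 0.40, and vimentin, VIM, at -1.001 ± 0.29 (adjusted p = 0.115).

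The tissue label was checked against markers. Of the 15 contractile genes, 13 were above background on all 12 arrays, so smooth muscle transcripts were present in every segment. Their mean over the list was 10.49 to 12.68 on SES arrays, 11.05 to 13.50 on ZES arrays and 12.46 to 13.36 on BMS arrays. MYOCD, PLN and HSPB7 are also expressed in heart muscle, which adjoins the coronary arteries. The mean of 23 cardiomyocyte markers was 4.52 to 7.45 on SES arrays, 5.08 to 6.65 on ZES arrays and 4.88 to 6.76 on BMS arrays, and SES 4 had the highest of all 12. Each of the 23 was above background on at least 1 array, and 3 were on all 12. MYL2, the regulatory light chain of ventricular myosin, read 4.96, 0.50, 5.28 and 10.93 on SES arrays, 3.64, 0.88, 6.60 and 9.54 on ZES arrays and 6.51, 6.61, 5.92 and 8.57 on BMS arrays. The highest MYL2 of each group was thus on its array number 4, an LAD segment, and SES 4 also had the highest values of the 9 genes among SES arrays. MYH7 also peaked on array number 4 of each group, at 9.94 on SES 4, 8.82 on ZES 4 and 8.81 on BMS 4. TNNC1 and MYL4 peaked on SES 4 too, but in the other groups on ZES 2 and BMS 2 for TNNC1 and on ZES 1 and BMS 1 for MYL4. Among SES arrays FABP3 was highest on SES 1 and CASQ2 on SES 2. TNNC1 had the smallest p of the list for SES against BMS, with -3.11 ± 0.98 (limma, adjusted p = 0.144). Of the 17 markers tested, 1 was higher and 2 were lower around SES at an unadjusted p under 0.05. Over all genes 8.18% were higher and 7.54% lower at that level. The mean of the 9 genes was highest on ZES 2 and BMS 2 in the other groups. TNNI3, a cardiac troponin, was listed at 0 on SES 2. The part of heart muscle in the differences of the 9 genes was not tested.

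**Figure D5:**
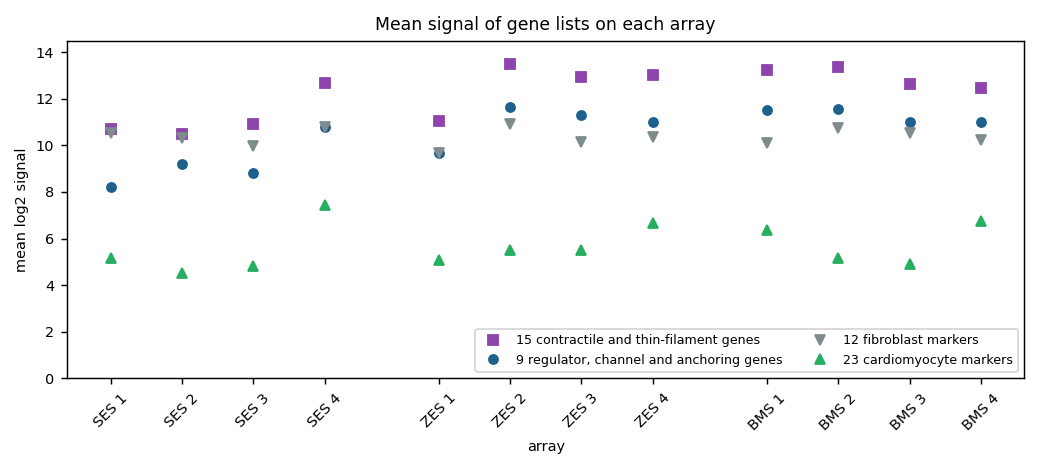
Mean log2 signal (y axis) over the 9 genes and over lists of 15 contractile genes, 12 fibroblast markers and 23 cardiomyocyte markers on each of the 12 arrays (x axis). The 9 genes and the contractile genes are low on SES 1 to 3 and ZES 1, while the mean of the fibroblast markers lies between 9.67 and 10.91. The mean of the 9 genes includes MYOCD signals under background on SES 1 and SES 3.

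Markers of other cell types the tissue could hold were averaged in the same way. The mean of 12 fibroblast markers was 9.99 to 10.81 on SES arrays, 9.67 to 10.91 on ZES arrays and 10.11 to 10.76 on BMS arrays. Its members went both ways between SES and BMS: 2 were higher (POSTN and SFRP1) and 2 lower (COL1A2 and FAP) at an unadjusted p under 0.05, and none passed. The mean of 12 macrophage markers was 8.78 to 9.72 on SES, 8.63 to 9.06 on ZES and 8.66 to 9.83 on BMS arrays, and that of 12 endothelial markers was 6.07 to 6.80 on SES, 6.74 to 7.09 on ZES and 5.80 to 6.54 on BMS arrays. The mean of 11 T and NK cell markers was 5.24 to 6.29 on SES arrays, 4.55 to 5.87 on ZES arrays and 3.84 to 5.04 on BMS arrays, without overlap between SES and BMS. In this list CD3E (limma, adjusted p = 0.0172) and SH2D1A (adjusted p = 0.029) were higher around SES than around BMS. No size is given for them, since CD3E was not above background on any BMS array and SH2D1A on BMS 4 alone. Pericyte markers, 6 genes, spanned 7.23 to 9.23 on SES arrays, 8.22 to 9.39 on ZES arrays and 7.60 to 9.17 on BMS arrays. Skeletal muscle markers, 10 genes, spanned 2.64 to 3.22 on SES, 3.51 to 4.05 on ZES and 3.07 to 5.35 on BMS arrays, and MYH2 and TNNI1 were above background on 0 arrays. Adipocyte markers, 5 genes, spanned 6.93 to 8.35 on SES, 6.82 to 8.37 on ZES and 7.45 to 8.40 on BMS arrays, with ADIPOQ above background on 0 arrays, and 3 platelet markers spanned 5.58 to 6.55 on SES, 5.27 to 6.43 on ZES and 5.54 to 7.02 on BMS arrays. The part of these cell types in the differences of the 9 genes was not tested.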

How the data were processed

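Amplified cDNA from total RNA was hybridised to 12 porcine Affymetrix arrays. The authors deposited log2 signals, for which the submitters' processing notes name MAS5 and Affymetrix Expression Console 5.0. The log base was read from the values: the linear signal has a 2% trimmed mean of 500.15 to 500.17 on each array. The sources used here give neither the scaling target nor the treatment of low signals, and 41 to 1153 probe sets per array stand at 0, a floor. No pseudocount was added and nothing was normalized further. Leaving out 124 control probe sets and then the 30% with the lowest mean kept 16799. Gene names are those of the platform's annotation, for probe sets with 1 symbol, and the brightest probe set by mean stands for its gene.

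The 3 comparisons of stent types used R 4.3.3 with limma 3.58.1 and statmod 1.5.0: stent type as a fixed term, the pig as a random block (consensus correlation -0.0322), eBayes with a variance trend, two-sided tests and Benjamini-Hochberg adjustment over all probe sets at 0.05. With 2 pigs per stent type, p-values mostly measure the spread between segments, and so few animals limit the precision. LAD and RCA were compared in 5 pigs with the pig as a fixed block. The procedure was run on simulated arrays with independent noise on each. These held no pig effect and no floor at 0, so they could not check how the fit handles pairs of segments. The 9 genes and all lists were chosen with earlier results of these data known. Named beside them are the 6 and 4 genes of most similar pattern and up to 3 genes per list with the smallest p for SES against BMS, and other names were chosen after their values were seen. Alternatives changed 1 choice at a time: block, normalization, filter, pseudocount, variance trend, weights, covariates, probe set choice, and arrays or pigs left out. No sequences of promoters or proteins were used here. The result of 1 list of genes is not reported here.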

Additional observations from a re-analysis of the deposited data

Results flagged for a closer look

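In 45 groups of 4 arrays (15 probe sets in each of 3 stent types) the highest or lowest array was checked for a gap to its neighbour by Dixon's criterion, which chance alone meets in about 1 of 20 groups. It was met in 4. HSPB7 on ZES 1, at 7.27, lay below the other ZES arrays by 0.905 of the group's range. ITGA8 on SES 4, at 12.02, lay above the other SES arrays by 0.872 of the range. The second probe set of ITGA8 on ZES 1, at 7.34, lay below the other ZES arrays by 0.879. FLNA on ZES 2, at 14.52, lay above the other ZES arrays by 0.883.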

How the results depend on the processing

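For SES against BMS, 277 of 305 values of the 9 genes over 34 alternatives kept direction and side of the threshold, 27 passed the threshold and 1 reversed; none of the 9 passed as reported. The number that passed was 1 in a fit on the 8 arrays alone (PLN), 2 with a pseudocount of 32 and 2 with no filter (KCNMB1 and PLN), and 5 with array weights. It was 0 to 6 when 1 array was left out (6 without SES 4), 1 without the pig of BMS 3 and BMS 4, 3 without that of SES 3 and SES 4 and 3 without that of ZES 1 and ZES 2. For ZES against SES it was 5 with array weights, 0 to 3 with 1 array left out and 1 without the pig of SES 3 and SES 4, and for ZES against BMS it was 0 in every alternative. The F test called 6 with array weights, 0 to 3 with 1 array left out, 1 without the pig of BMS 3 and BMS 4, 2 without that of SES 3 and SES 4 and 1 without that of ZES 1 and ZES 2. Over all probe sets, 114 passed for SES against BMS, with 0 to 673 over the alternatives. For ZES against BMS it was 0, with 0 to 71, and for ZES against SES 12, with 0 to 306. The number of all probe sets that passed thus differed widely between fits. Counts of the 9 genes without it therefore say nothing about these genes in particular. With the GAPDH difference as a covariate the median for SES against BMS was -3.35, and ACTN1 turned to 0.063 for SES against BMS and -0.12 for ZES against SES. Signs turned most often for ZES against BMS, where the reported differences were small. There quantile normalization gave 0.072 for MYOCD and 0.13 for ACTN1, and array weights gave 0.21 for MYOCD and 0.16 for HSPB7. The spike-in covariate gave 1.13 for MYOCD, 0.62 for KCNMB1, 0.44 for PPP1R14A, 1.08 for HSPB7, 0.40 for ITGA8, 0.18 for CSRP1 and 0.016 for ACTN1. The mean of all probe sets of a gene gave 0.56 for KCNMB1 and 0.13 for ACTN1. Without the pig of BMS 1 and BMS 2, KCNMB1 was 0.13, PPP1R14A 0.45, HSPB7 0.086 and CSRP1 0.47. Without the pig of ZES 1 and ZES 2, MYOCD was 0.45, KCNMB1 0.028, PPP1R14A 0.16, HSPB7 0.50 and FLNA -0.13. Without BMS 1 and ZES 2, a choice made after seeing the data, FLNA was -0.24. With 1 array left out, ZES against BMS ranged from -0.42 to 0.35 for MYOCD, -0.65 to 0.18 for KCNMB1, -0.45 to 0.30 for PPP1R14A, -0.38 to 0.56 for HSPB7, -0.88 to 0.43 for CSRP1 and -0.22 to 0.61 for FLNA. For LAD against RCA with 1 pig left out, the range was -0.17 to 0.056 for ACTN1, -0.18 to 1.58 for MYOCD, -0.18 to 0.49 for ITGA8 and -0.064 to 1.13 for PLN. The cause of these shifts was not tested. With the 50% dimmest probe sets removed MYOCD has no value, and a planned search of promoters was not run. MYOCD was above background on 10 of 12 arrays, and on 9 with the brightest negative control as the bound. No paired comparison of stent types was possible because both segments of each pig had the same stent type.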
